A study of Mus musculus with 12 samples.

Results

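The mir-181 family comprised 6 miRNA hairpins, mmu-mir-181a-1, mmu-mir-181a-2, mmu-mir-181b-1, mmu-mir-181b-2, mmu-mir-181c and mmu-mir-181d (the species prefix is left out from here on), out of 1050 mouse hairpins with at least 1 read in the 12 small RNA libraries. They were chosen by name. A hairpin is the folded precursor from whose arms, 5p and 3p, the mature miRNA is cut, and the values below are reads per hairpin with both arms added. A mature miRNA directs a silencing complex to messenger RNAs, mainly through its seed, bases 2 to 8, so that miRNAs with the same seed can recognise the same sites. miR-181 is best known from lymphocytes, where miR-181a tunes the response of developing T cells to antigen, and its members are made in clusters of neighbouring hairpins.

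Sperm came from the epididymis of male C57BL6/J mice that were given either a control diet (CD, AIN-93G, 16% kcal from fat) or a high-fat diet (HFD, D12492) from 4 weeks of age for 7 weeks. The labels give 69% kcal from fat for the HFD, while the methods give a different value. There were 3 libraries per diet, each a pool of sperm from 3 mice. The other 6 libraries came from TM4, a mouse Sertoli cell line, with 2 each of untreated cells (Ctrl), cells given 10 µM Compound C for 12 h (CC), and cells that overexpressed angiogenin from a full-length coding sequence in a plasmid (Ang OE). Compound C inhibits AMP-activated protein kinase, a sensor of cellular energy, and angiogenin is a ribonuclease that cleaves tRNAs. All TM4 groups are 1 cell line, and no source used here says that replicates were separate cultures, so p-values measure the spread between these libraries. Ctrl cells were untreated, so the plasmid and its delivery cannot be told apart from angiogenin itself, and the level of the Ang messenger RNA was not analysed here.

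The 6 hairpins give 4 distinct mature 5p sequences, all with the same seed. They are shown because the hairpins compared below differ little in these RNAs, although the values are per hairpin with both arms added. The seed, bases 2 to 8, is in capitals, and the sequences are from RefSeq on the mouse build GRCm38.p6.
miR-181a-5p: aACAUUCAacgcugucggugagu
miR-181b-5p: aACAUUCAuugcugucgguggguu
miR-181c-5p: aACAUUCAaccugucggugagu
miR-181d-5p: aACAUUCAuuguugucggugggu
Of 1738 mature mouse entries in the RefSeq table, only the 6 entries of these hairpins carry this 5p seed. Positions are counted from 1 at the 5′ end. miR-181b-5p differs from miR-181a-5p by A9U, C10U and A21G and is longer by a base, miR-181d-5p differs from miR-181b-5p by C12U and is shorter by a base, and miR-181c-5p is 1 edit, a missing base, from miR-181a-5p.

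The 3p arms tell apart the hairpins whose 5p arms are the same, and they are shown for that reason, again with bases 2 to 8 in capitals.
miR-181a-1-3p: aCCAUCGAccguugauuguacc
miR-181a-2-3p: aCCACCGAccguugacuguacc
miR-181c-3p: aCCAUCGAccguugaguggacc
miR-181b-1-3p: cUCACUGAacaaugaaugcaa
miR-181b-2-3p: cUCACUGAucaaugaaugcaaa
miR-181d-3p: cCCACCGGgggaugaauguca
The 6 distinct 3p sequences have 4 seeds. miR-181a-2-3p differs from miR-181a-1-3p by U5C, inside the seed, and by U16C. miR-181a-1-3p and miR-181c-3p share their seed and their first 15 bases, the length of the shortest read kept, and differ by U16G and U19G. miR-181b-2-3p differs from miR-181b-1-3p by A9U over the length of the shorter.

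The hairpins lie in 3 pairs. mir-181a-1 (chr1:137966455-137966541) and mir-181b-1 (chr1:137966639-137966718) lie on the plus strand of GRCm38.p6 with 97 bases between them. mir-181a-2 (chr2:38852735-38852810) and mir-181b-2 (chr2:38853830-38853918) lie on the plus strand with 1019 bases between them. mir-181c (chr8:84178873-84178961) and mir-181d (chr8:84178716-84178787) lie on the minus strand with 85 bases between them. In the GENCODE annotation, which is on a later build and was used for names only, the first pair overlaps an exon of the long non-coding RNA gene Mir181a-1hg. The second pair lies in introns of Nr6a1os, on the same strand, and of Nr6a1, on the opposite strand. The third lies in introns of Nanos3, a germ cell gene, on the same strand, whereas in RefSeq on GRCm38.p6 no gene overlaps it and Nanos3 lies 2163 bases from mir-181d.

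Reads that match several hairpins were divided among them in the deposited values. The values of mir-181b-1 and mir-181b-2 ended in 0 or 0.5 and their sum was whole in 12 of 12 libraries. mir-181a-1 plus mir-181a-2 was whole in 4 libraries, and these with mir-181c in 12 of 12, so in the other 8 at least 1 read was divided between mir-181c and a mir-181a hairpin. mir-181d was whole in 12 of 12. Values of the a-1 and a-2 pair, and of the b-1 and b-2 pair, are therefore largely the same reads and count as uncertain for the single hairpin, so the sums mir-181a and mir-181b are also given.

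The libraries held 11412945 to 14822686 miRNA reads in sperm and 27651384 to 35704399 in TM4 cells. Each member had at least 413 reads in every library, and all 6 passed the filter on low counts (10 or more reads in 3 or more of the sperm libraries, or in 2 or more libraries in the other fits) in every comparison. Levels are counts per 1000000 miRNA reads of the library (CPM), not divided by length. The mature forms are 21 to 24 nt long. The libraries are bulk samples, in which fewer cells of a type and less RNA per cell cannot be told apart. In sperm, the summed markers of red blood cells (4 hairpins, 25239 to 50595 CPM), epithelium (6 hairpins, 9170 to 14625 CPM), muscle (7 hairpins, 30652 to 56169 CPM), white blood cells (6 hairpins, 6604 to 9124 CPM) and mesenchyme (4 hairpins, 1635 to 2370 CPM) stood beside those of testis germ cells (12 hairpins, 3810 to 11160 CPM). In TM4 cells, epithelial markers summed to 2.10 to 3.09 CPM and mesenchymal ones to 15607 to 19343 CPM, while germ cell markers summed to 935 to 2045 CPM, with 7 or 8 of 12 read in a group and mir-743a, mir-880 and mir-463 at 0 in every group. The TM4 sums were 49715 to 129039 CPM for muscle, 2332 to 2632 CPM for white blood cells and 1762 to 2857 CPM for red blood cells. These lists are therefore not read only in the cells they are named for. HFD replicate 1 stood apart from the other sperm libraries of its diet, where the chi-square divided by its degrees of freedom was 1138 and 1468 against the other two and 286 between those.

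mir-181a made up most of the family in every library. In sperm its share of family reads was 84.0% to 89.8%, with a median of 86.7%, and in TM4 cells it was 73.8% to 81.7%. mir-181b and mir-181c changed places between the sources. In sperm, mir-181c came next, with 7.04% to 12.4% of family reads, then mir-181b with 2.70% to 3.20% and mir-181d with 0.48% to 0.888%. In TM4 cells, mir-181b came next with 17.9% to 25.6%, while mir-181c held 0.256% to 0.381% and mir-181d 0.114% to 0.199%. These ranges do not overlap between forms within a source, so the order of the 4 forms was the same in all 6 sperm libraries and in all 6 TM4 libraries.

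**Figure D1:**
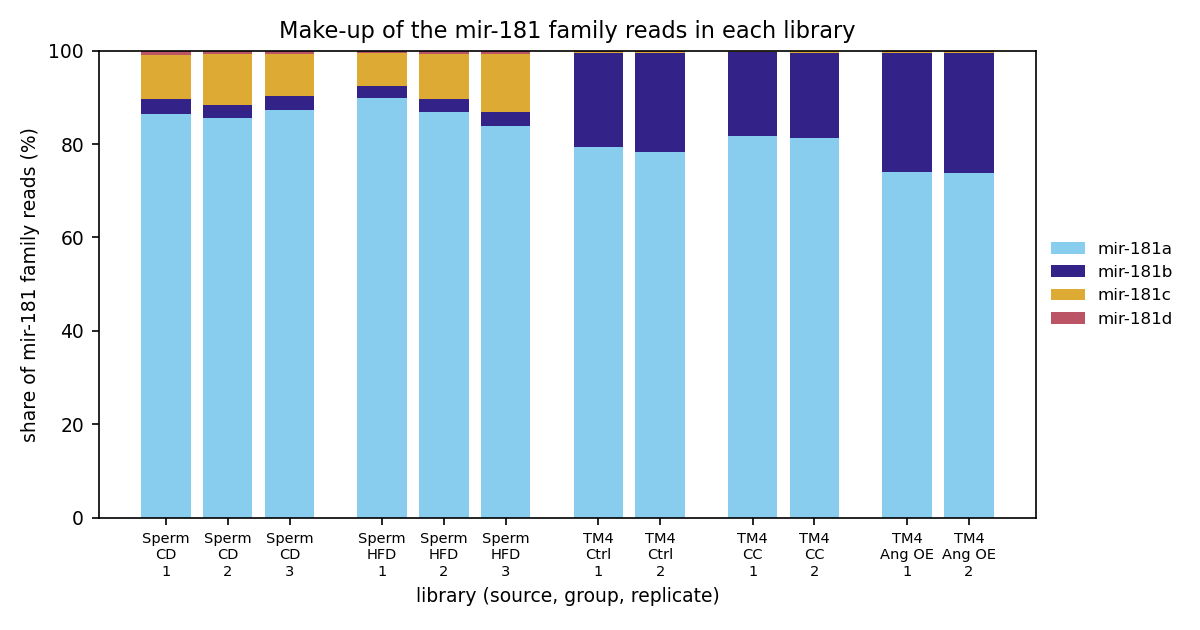
Share of mir-181 family reads (%, bar from 0 to 100) from mir-181a, mir-181b, mir-181c and mir-181d in each of the 12 libraries, named by source, group and replicate. The second largest part is mir-181c in the sperm libraries (7.04% to 12.4%) and mir-181b in the TM4 libraries (17.9% to 25.6%).

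Summed over its members, the family took 16893 to 21139 CPM in sperm and 7827 to 14505 CPM in TM4 cells. mir-181a-2 and mir-181a-1 ranked 11th and 13th among the 923 hairpins with a read in CD sperm, with means of 8544 ± 612 and 8325 ± 609.9 CPM (SD, n = 3). These means differed by less than their SD, although within each library mir-181a-2 was the higher one. mir-181c ranked 39th in CD sperm at 1913 ± 239.9 CPM (SD, n = 3) and 165th of 796 in TM4 Ctrl at 46.0 ± 0.112 CPM (SD, n = 2). mir-181b-1 and mir-181b-2 went from ranks 94 and 91 in CD sperm to 66 and 64 in TM4 Ctrl.

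**Figure D2:**
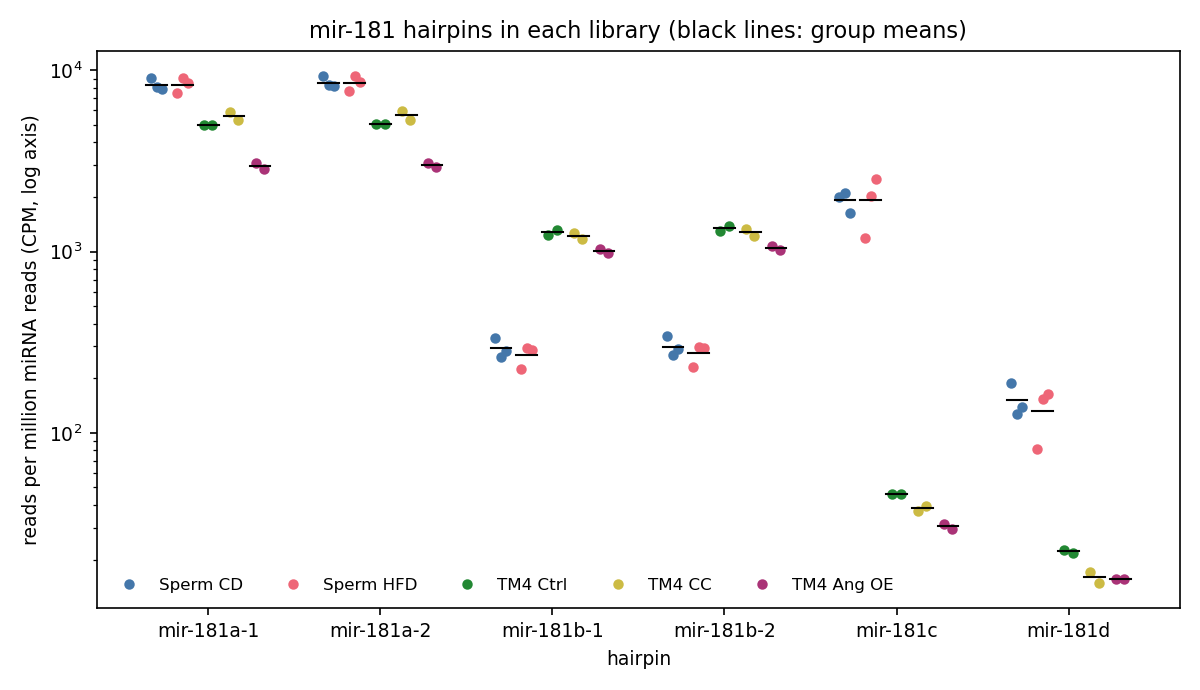
Reads per 1000000 miRNA reads (CPM, log axis) of the 6 mir-181 hairpins, 1 point a library, coloured by group, with black lines at the group means. mir-181c lies between 1189 and 2522 CPM in sperm and between 29.3 and 46.1 CPM in TM4 cells, while mir-181b-1 and mir-181b-2 are higher in every TM4 library than in any sperm library.

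The untreated sources, TM4 Ctrl and CD sperm, differed in all 6 members, and not in the same direction. mir-181c was at 2001, 2096 and 1641 CPM in CD sperm and at 45.9 and 46.1 CPM in TM4 Ctrl. Its partner mir-181d was at 188, 127 and 139 CPM in CD sperm and at 22.7 and 21.7 CPM in TM4 Ctrl. mir-181a, as the sum of both hairpins, was at 18273, 16288 and 16046 CPM in CD sperm and at 10063 and 10017 CPM in TM4 Ctrl. The sperm libraries were the higher ones for these 3 forms, without overlap. mir-181b went the other way, with 676, 529.7 and 572 CPM in CD sperm and 2531 and 2708 CPM in TM4 Ctrl.

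By edgeR's quasi-likelihood test with trimmed mean of M-values (TMM) normalization, 6 of 6 members passed an adjusted p of 0.05, against a background of 77.1% of the 590 hairpins tested. Of the members 4 were lower and 2 higher in TM4 Ctrl, against 40.7% and 36.4% of all hairpins. The log2 fold change of TM4 Ctrl over CD sperm was -6.71 for mir-181c (SE 0.197, edgeR adjusted p = 1.92e-08), a level 105 times lower in TM4 Ctrl with a 95% interval of 76.7 to 144 times. For mir-181d it was -4.13 (SE 0.292, edgeR adjusted p = 2.12e-06), or 17.5 times lower. mir-181a-1 and mir-181a-2 fell by 2.08 and 2.10 (edgeR adjusted p = 3.76e-06 and 3.55e-06), and mir-181b-1 and mir-181b-2 were higher by 0.77 and 0.82 (edgeR adjusted p = 0.00529 and 0.00376). Ranges of CPM did not overlap for any member, with 4 lower in TM4 Ctrl, against 34.4% of all hairpins, and 2 higher, against 59.7%.

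The size of these differences depended on the scaling. mir-10a and mir-10b together took 57.0% to 62.6% of the miRNA reads in sperm and 24.1% to 27.5% in TM4 cells. With the miRNA reads as library size, as in CPM, the log2 fold change was -5.38 for mir-181c, -0.74 for mir-181a-1 and 2.12 for mir-181b-1, while the median of all hairpins moved from 0.13 to 1.47. A change of scaling shifts all hairpins alike, so the distance to that median is nearly fixed by construction. It was -6.85 for mir-181c, -4.26 for mir-181d, -2.22 for mir-181a-1 and 0.64 for mir-181b-1 with TMM. Leaving out a TM4 Ctrl library also changed the sizes, with 456 and 455 hairpins past the filter. Without Ctrl replicate 1 and without Ctrl replicate 2 the log2 fold change was -5.82 and -5.86 for mir-181c, -1.19 and -1.22 for mir-181a-1, 1.71 and 1.58 for mir-181b-1, and -3.26 and -3.23 for mir-181d, each still called, although the lone Ctrl library is then assumed to vary as the CD libraries do. Without CD replicate 1, mir-181b-1 was at 1.09 and mir-181d at -3.73. Source, preparation and the cells that a sperm pellet carries cannot be told apart in this comparison.

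**Figure D3:**
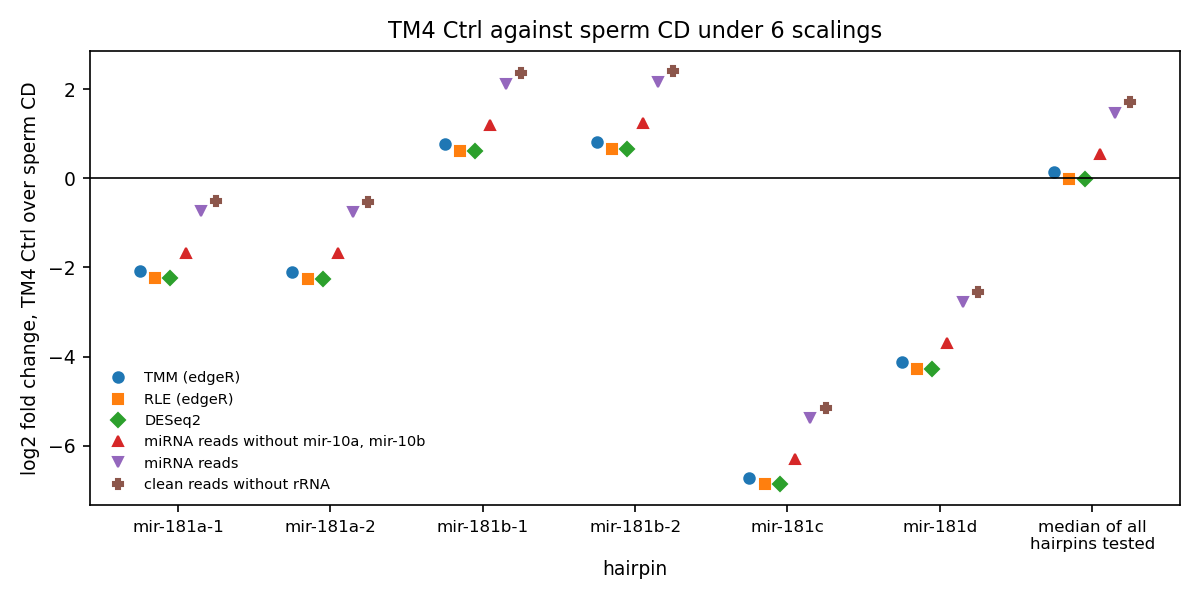
Log2 fold change of TM4 Ctrl over CD sperm for each hairpin and for the median of all hairpins tested, under 6 ways of scaling the libraries (symbols). Every scaling gives the same direction for each member, and all points of a scaling shift together with the median, which runs from -0.02 with RLE size factors or DESeq2 to 1.71 with clean reads other than rRNA as library size.

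Ratios within a library do not depend on the scaling. mir-181b amounted to 3.00% to 3.70% of mir-181a reads in the 6 sperm libraries and to 22.0% to 34.7% in the 6 TM4 libraries. mir-181c amounted to 7.84% to 14.7% of mir-181a in sperm and to 0.313% to 0.514% in TM4 cells. mir-181c and mir-181d, although their hairpins lie 85 bases apart, were not in a fixed ratio. There were 10.7 to 16.4 mir-181c reads for each mir-181d read in sperm and 1.89 to 2.65 in TM4 cells. mir-181d amounted to 17.8% to 28.0% of mir-181b reads in sperm and to 0.622% to 0.897% in TM4 cells. None of these ranges overlapped between the sources. The mature forms of mir-181b and mir-181d that share the seed differ by 1 substitution over the length of the shorter, and the annotation allowed 1 mismatch. Whether mir-181b reads were counted as mir-181d was not tested, for these ratios or for the fold changes of mir-181d.

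**Figure D4:**
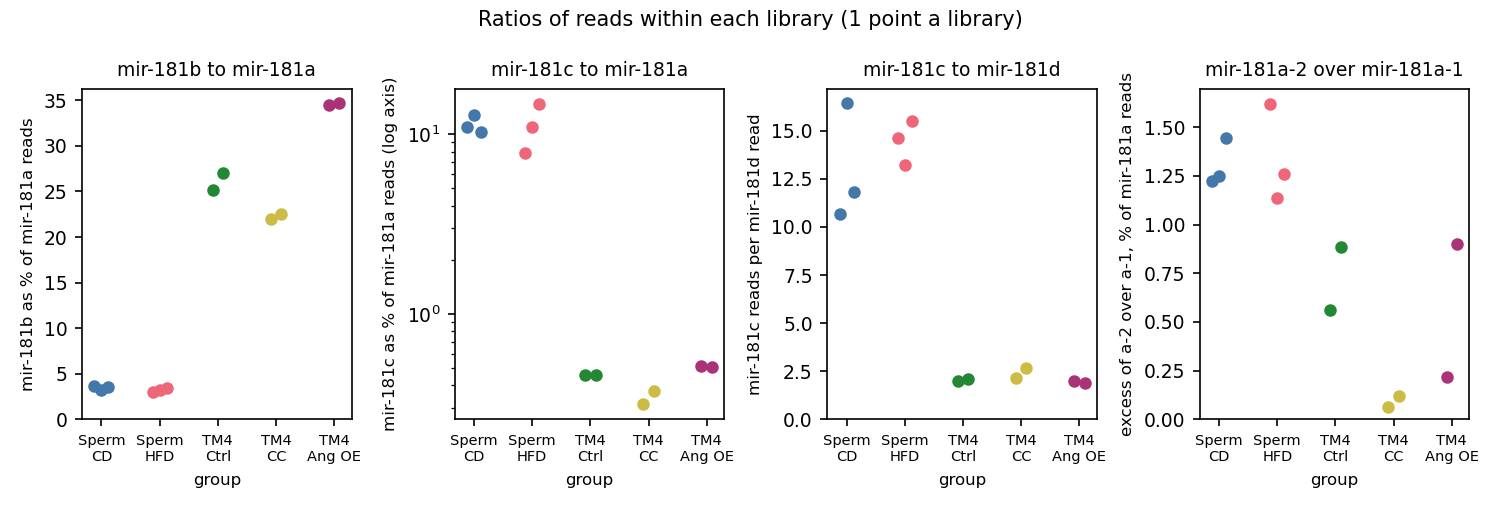
Ratios of reads within each library, 1 point a library, by group. From left, mir-181b as % of mir-181a, mir-181c as % of mir-181a (log axis), mir-181c reads per mir-181d read, and the excess of mir-181a-2 over mir-181a-1 as % of mir-181a. mir-181b per mir-181a is at 34.4% and 34.7% in Ang OE, above 25.2% and 27.0% in Ctrl and 22.0% and 22.5% in CC.

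The diets were compared to ask whether a HFD changes the small RNA that sperm carry. No mir-181 member passed the test between HFD and CD sperm. mir-181a was at 18273, 16288 and 16046 CPM on the CD and at 15168, 18367 and 17121 CPM on the HFD. mir-181c was at 2001, 2096 and 1641 CPM on the CD and at 1189, 2026 and 2522 CPM on the HFD. The HFD libraries held both the lowest and the highest value of both forms. mir-181b was at 676, 529.7 and 572 CPM on the CD against 455, 592 and 581 CPM. mir-181d was at 188, 127 and 139 CPM on the CD against 81.2, 153 and 163 CPM, and HFD replicate 1 held the lowest value of both forms. CPM ranges of the diets overlapped for 6 of 6 members, while 3.99% of all hairpins were higher and 2.22% lower on the HFD without overlap.

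edgeR called 0 of 6 members, against 0.00% of the 451 hairpins tested, of which 31 had an unadjusted p under 0.05. No member had an unadjusted p under 0.05, and DESeq2 called 0 members and 8 hairpins. The log2 fold change of HFD over CD was -0.11 for mir-181a-1 (95% interval -0.52 to 0.30), -0.25 for mir-181b-1 (-0.75 to 0.26), -0.10 for mir-181c (-0.71 to 0.51) and -0.31 for mir-181d (-1.03 to 0.41), each with an edgeR adjusted p of 0.989. Leaving out 1 library turned the direction, of 6 of 6 members without CD replicate 1 and of 4 without HFD replicate 1. Without HFD replicate 1 the log2 fold change was 0.23 for mir-181c and 0.05 for mir-181a-1, and without CD replicate 1 it was 0.09 for mir-181a-1 and 0.08 for mir-181c.

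The shares of the family's reads were compared as well. The mean share of mir-181a was 86.4% ± 0.838 in CD and 86.9% ± 2.90 in HFD sperm, and that of mir-181c was 9.80% ± 1.08 and 9.66% ± 2.67 (SD, n = 3 per diet). The exact 2-sided permutation test gave p = 0.8 for mir-181a, 0.3 for mir-181b, 1 for mir-181c and 0.5 for mir-181d, each 1 after Benjamini-Hochberg adjustment over the 4 shares. The smallest p that 3 against 3 libraries allow is 0.1, so this test could not have passed the threshold.

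In HFD sperm mir-181c had the largest spread of the members relative to its mean, with an SD of 674 CPM around 1912 CPM (n = 3). mir-181d was close to it, with an SD of 44.7 CPM around 132 CPM, and was also lowest in HFD replicate 1 and highest in HFD replicate 3 within its diet. The lowest value of mir-181c was in HFD replicate 1 and its highest in HFD replicate 3, and so were the lowest and highest summed muscle markers (30652 and 56169 CPM) and epithelial markers (9170 and 14625 CPM) of the 6 sperm libraries. Red blood cell markers were highest in HFD replicate 1 (50595 CPM) and lowest in HFD replicate 3 (25239 CPM). Mesenchymal markers were highest in HFD replicate 3 (2370 CPM) and lowest in CD replicate 3 (1635 CPM). Germ cell markers ran from 3810 CPM in CD replicate 1 to 11160 CPM in CD replicate 2. White blood cell markers ran from 6604 CPM in CD replicate 2 to 9124 CPM in CD replicate 3. The part of the cells behind these lists in the spread of mir-181c was not tested.

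The TM4 comparisons asked what inhibition of AMP-activated protein kinase and excess angiogenin do to small RNAs in Sertoli cells. mir-181a was lower in Ang OE, while mir-181b, from the same clusters, fell short of the threshold. mir-181a-1 was at 5003 and 4964 CPM in Ctrl and at 3060 and 2864 CPM in Ang OE. mir-181a-2 was at 5060 and 5053 CPM in Ctrl and at 3073 and 2915 CPM in Ang OE. Both Ang OE libraries lay far below both Ctrl libraries, and the replicates of a group lay close together.

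edgeR called 2 of 6 members in Ang OE against Ctrl, both lower, where 14.1% of the 533 hairpins tested were called lower and 38.3% in either direction. mir-181a-1 fell by 0.48 on the log2 scale (SE 0.0983, edgeR adjusted p = 9.64e-04) and mir-181a-2 by 0.48 (SE 0.0982, edgeR adjusted p = 8.84e-04), that is, to 71.9% and 71.6% of Ctrl. This call held in 17 of 17 alternatives, of which 4 leave 1 Ctrl or 1 Ang OE library that is assumed to vary like the other groups. The values of the 2 hairpins are largely the same reads and are not independent of each other.

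The remaining members were not called. mir-181b-1 was at 1232 and 1318 CPM in Ctrl and at 1036 and 979 CPM in Ang OE, a log2 fold change of -0.07 (SE 0.101, edgeR adjusted p = 0.635), and mir-181b-2 had -0.08. mir-181c was at 45.9 and 46.1 CPM in Ctrl and at 31.6 and 29.3 CPM in Ang OE, with a log2 fold change of -0.32 (SE 0.127, edgeR adjusted p = 0.0564), and it passed the threshold in 9 of 17 alternatives. mir-181d was at 22.7 and 21.7 CPM in Ctrl and at 15.6 and 15.5 CPM in Ang OE, a log2 fold change of -0.23 (SE 0.14, edgeR adjusted p = 0.194). In CPM, Ang OE lay below Ctrl without overlap for 6 of 6 members, as it did for 45.2% of all hairpins.

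Here too the scaling moved all members. With the miRNA reads as library size the median of all hairpins moved from 0.06 to -0.21, mir-181a-1 went to -0.75 and mir-181b-1 to -0.34, and 6 of 6 members were called lower, while the calls over all hairpins went from 129 higher and 75 lower to 81 higher and 139 lower. Relative to the median of all hairpins, which moves with every hairpin when the scaling changes, mir-181a-1 lay at -0.54 and mir-181b-1 at -0.13. The reads of mir-181b for each read of mir-181a, free of scaling, were 25.2% and 27.0% in Ctrl and 34.4% and 34.7% in Ang OE, without overlap. An exact permutation test of 2 libraries against 2 cannot reach the threshold, and the ratio was not tested. Marker sums moved with Ang OE as well. Muscle markers summed to 94556 and 129039 CPM in Ang OE against 49715 and 55568 CPM in Ctrl, where mir-143 and mir-145a were called higher by edgeR and the list's median log2 fold change, over the 4 of 7 tested, was -0.50. Germ cell markers summed to 1932 and 2045 CPM against 1017 and 1050 CPM, with 4 of 5 tested called higher (mir-871, mir-34b, mir-34c and mir-449a). Red blood cell markers summed to 1762 and 1784 CPM against 2737 and 2857 CPM, with mir-486a and mir-486b called lower. mir-486a and mir-486b were also called lower in CC against Ctrl. Mesenchymal markers summed to 17236 and 16497 CPM against 18343 and 19343 CPM, and mir-199b and mir-214 were called, 1 higher and 1 lower. Of 5 white blood cell hairpins tested mir-155 was called higher. The part of these in the lower level of mir-181a was not tested.

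CC left all members short of the threshold. mir-181d showed the largest difference, with 22.7 and 21.7 CPM in Ctrl and 17.1 and 14.9 CPM in CC, both CC libraries below both Ctrl libraries. Its log2 fold change was -0.46 (SE 0.14, unadjusted p = 0.00441, edgeR adjusted p = 0.0824). mir-181d amounted to 0.8966% and 0.8005% of mir-181b reads in Ctrl and to 0.6563% and 0.6221% in CC. mir-181c, its neighbour, was at 37.1 and 39.5 CPM in CC, a log2 fold change of -0.26 (SE 0.127, edgeR adjusted p = 0.294). mir-181a-1 was at 5921 and 5330 CPM in CC, 0.18 on the log2 scale (SE 0.0981, edgeR adjusted p = 0.354), and mir-181b-1 at 1272 and 1178 CPM, -0.05 on the log2 scale (edgeR adjusted p = 0.858).

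edgeR called 0 of 6 members in CC against Ctrl, against 4.13% of 533 hairpins, and 1 of 6 members, mir-181d, had an unadjusted p under 0.05, as did 94 of the 533 hairpins. mir-181d was called in 2 of 17 alternatives, ComBat-seq with the replicate number as batch (edgeR adjusted p = 0.0294) and the replicate number as a block (edgeR adjusted p = 0.0403). DESeq2 called 0 members, and the adjusted p of mir-181d over the alternatives ranged from 0.0294 to 0.373. In CPM, CC lay above Ctrl without overlap for both mir-181a hairpins, as for 23.1% of all hairpins, and below it for mir-181c and mir-181d, as for 24.0%. Red blood cell markers summed to 1956 and 1879 CPM in CC against 2857 and 2737 CPM in Ctrl, with mir-486a and mir-486b called lower. Of 5 white blood cell hairpins tested mir-146b was called lower, and no hairpin of the other lists was called. The part of these in the members' differences was not tested.

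**Figure D5:**
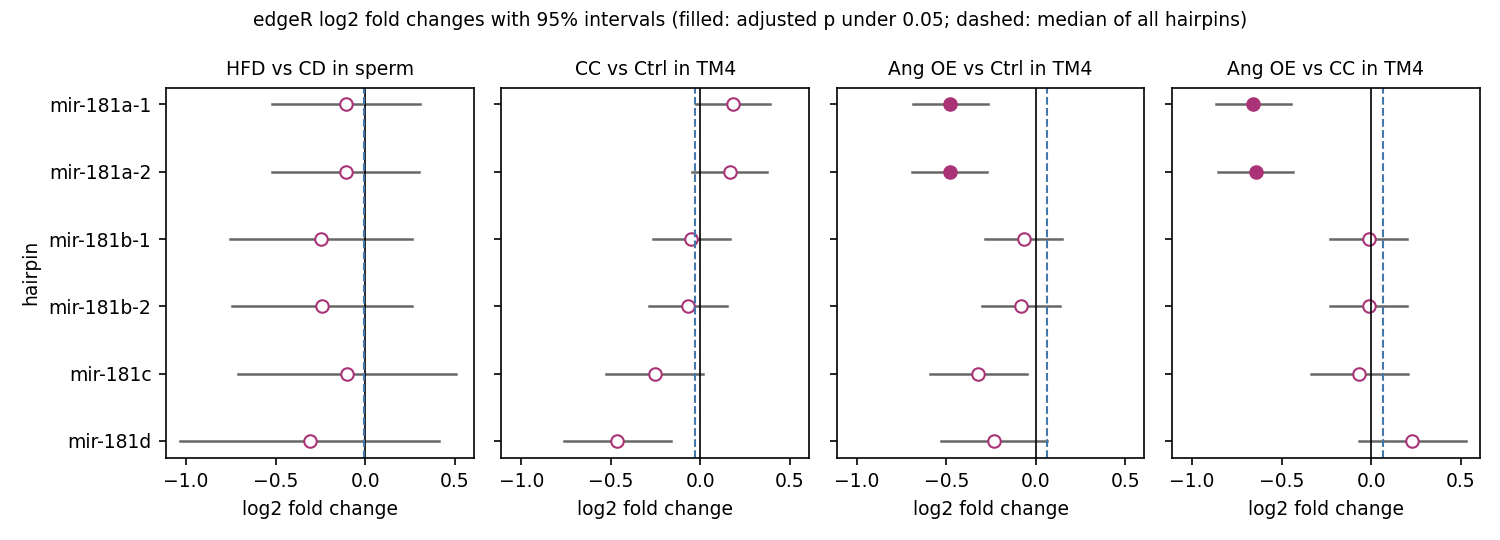
Log2 fold changes from edgeR for the 6 hairpins in 4 comparisons, with 95% intervals as bars. Filled points passed an adjusted p of 0.05, and the dashed line is the median of all hairpins. mir-181a-1 and mir-181a-2 are filled in Ang OE against Ctrl (-0.48 each) and in Ang OE against CC (-0.66 and -0.64), and no point is filled for HFD or CC.

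Ang OE and CC were each set against the same 2 Ctrl libraries, so the treatments were also compared directly. mir-181a-1 was at 5921 and 5330 CPM in CC and at 3060 and 2864 CPM in Ang OE, and fell by 0.66 on the log2 scale (SE 0.0985, edgeR adjusted p = 4.84e-05). mir-181a-2 fell by 0.64 (SE 0.0984, edgeR adjusted p = 5.86e-05). These were the 2 of 6 members called, where 15.2% of 533 hairpins were called lower and 41.5% in either direction. With miRNA reads as library size 4 members were called lower, and the calls over all hairpins went from 140 higher and 81 lower to 83 higher and 143 lower. The log2 fold change was -0.01 for mir-181b-1 (95% interval -0.23 to 0.20), -0.07 for mir-181c (-0.34 to 0.21) and 0.23 for mir-181d (-0.07 to 0.53), none of them called. Markers moved in this comparison too. Of those tested, edgeR called 3 of 4 mesenchymal hairpins (mir-199a-1, mir-199a-2 and mir-199b), 3 of 5 germ cell hairpins and 1 of 5 white blood cell hairpins (mir-146b) higher in Ang OE. Of 4 muscle hairpins tested mir-143 was called higher, while the list's median log2 fold change was -0.66, and the list summed to 51423 and 73465 CPM in CC. The part of these in the difference was not tested. mir-181b stood at 22.0% and 22.5% of mir-181a in CC, below both Ctrl and Ang OE.

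The excess of mir-181a-2 over mir-181a-1 holds only reads assigned unequally to the hairpins, such as those of their different 3p arms. It was 1.14% to 1.62% of mir-181a reads in sperm, where mir-181a-2 exceeded mir-181a-1 by 2322.5 to 3422 reads. In TM4 Ctrl it was 0.564% and 0.887%, in CC 0.0646% and 0.118%, and in Ang OE 0.22% and 0.898%. The CC values lay below all others, on 233 and 349.5 reads, while the Ang OE libraries lay far apart. For the b pair the excess of mir-181b-2 was 0.982% to 1.56% of mir-181b reads in sperm and 1.83% to 2.66% in TM4 cells, so the a excess was higher in sperm than in TM4 cells and the b excess higher in TM4 cells than in sperm. Arms were not counted separately in the values used here.

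The 3 hairpins outside the family whose log2 CPM followed the family sum most closely over the 12 libraries, of 326 with a mean of at least 100 reads, were mir-874 (Pearson's r = 0.907), mir-3470b (0.90) and mir-3470a (0.885). The libraries fall into 2 sources, and r over all 12 includes the gap between the sources. Within the 6 sperm libraries r was 0.511, -0.0813 and 0.384, and within the 6 TM4 libraries 0.662, 0.921 and 0.701. mir-874 was at 9.32 to 14.0 CPM in sperm and 2.60 to 6.04 CPM in TM4 cells.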

How the data were processed

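Small RNA of 6 sperm and 6 TM4 libraries was sequenced (TruSeq Small RNA kit). According to the methods, the authors trimmed reads with Trimmomatic 0.40, kept those of 15 to 45 nt and annotated them with SPORTS1.1, allowing 1 mismatch. The build named in the submitters' processing notes is mm10. The deposited values are estimated counts per hairpin, not normalized, in which a read matching several hairpins is divided among them. Sequences and positions came from RefSeq on GRCm38.p6. All 6 members matched a mature entry and 5 of 6 a hairpin entry.

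Reads with and without a genome match were added and rounded. Hairpins that reached 10 reads in 3 or more sperm libraries, or in 2 or more libraries of the other fits, were tested with edgeR 4.0.16 (R 4.3.3, quasi-likelihood, TMM) and called at a Benjamini-Hochberg adjusted p under 0.05 over all hairpins. TM4 groups shared 1 model. Family shares were compared by exact permutation. Intervals are at the 95% level. All 6 members are named, with the 3 hairpins most alike. Alternatives were DESeq2 1.42.0, other size factors and library sizes, other filters, genome-matched reads, summed mature forms, the replicate number as a block, the 2 groups alone, ComBat-seq (sva 3.50.0) and each library left out. The methods name ComBat-seq for the cell line data, but the batches are not given in the sources used here. Tests were checked on simulated counts with planted changes of 2 on the log2 scale, larger than any member's change within sperm or within TM4. Ang OE against CC was not simulated. Members and marker lists were chosen with earlier results of these data known. Python 3.11.15, pandas 2.3.3, numpy 2.4.6, scipy 1.17.1 and matplotlib 3.10.9 were used.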

Additional observations from a re-analysis of the deposited data

How the results depend on the processing

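Each member had at least 413 reads in every library. For TM4 Ctrl against CD sperm, all 6 members kept their direction and their call in all 15 alternatives. In 2 of these a lone Ctrl library was assumed to vary like the CD libraries, and the library size without mir-10a and mir-10b reads was 1 chosen after seeing the data (-6.30 for mir-181c, -1.67 for mir-181a-1). With a library left out, mir-181c ranged from -6.77 to -5.82 and mir-181a-1 from -2.08 to -1.19. Calls over all hairpins there went from 215 higher and 240 lower to 342 and 194 with miRNA reads, and to 354 and 187 with clean reads, as library size.

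For HFD against CD, the members called stayed at 0 in all alternatives, and DESeq2 called 8 hairpins in all. Scaled to clean reads other than rRNA, the log2 fold change turned to 0.086 for mir-181a-1 and mir-181a-2 and 0.093 for mir-181c, and with miRNA reads to 0.0011 for mir-181a-1 and 0.0017 for mir-181a-2. With each library left out in turn it ranged from -0.24 to 0.092 for mir-181a-1, -0.23 to 0.090 for mir-181a-2, -0.39 to 0.0013 for mir-181b-1, -0.39 to 0.0065 for mir-181b-2, -0.26 to 0.23 for mir-181c and -0.50 to 0.025 for mir-181d. The difference in the share of mir-181c, -0.134 points, became 0.156 points over the added reads of a diet and ranged from -1.49 to 1.18 points with a library left out, and that of mir-181a from -0.968 to 1.94 points.

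For CC against Ctrl, 1 member, mir-181d, was called with the replicate number as a block and with ComBat-seq, and hairpins called rose from 22 to 35 and 39. With a library left out they ranged from 0, without either CC replicate, to 26, and mir-181b-1 ranged from -0.14 to 0.017 and mir-181b-2 from -0.17 to 0.00045. For Ang OE against Ctrl, members called went from 2 to 6 with miRNA reads as library size and to 4 with at least 100 reads and with ComBat-seq, all lower, and mir-181b-1 ranged from -0.15 to 0.014 with a library left out. Calls over all hairpins split into 98 higher and 103 lower with clean reads. For Ang OE against CC, members called went from 2 to 4 with miRNA reads, where mir-181d turned to -0.040, and mir-181b-1 and mir-181b-2 ranged from -0.11 to 0.025 and -0.10 to 0.031 with a library left out. Calls over all hairpins split into 117 higher and 105 lower with clean reads. The cause of these changes was not tested.

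Deviations of same-numbered libraries correlated with r = -0.345, -0.239 and 0.07 in sperm and, in TM4, -0.011 (Ctrl and CC), -0.11 (Ctrl and Ang OE) and 0.167 (CC and Ang OE). No label says what a number marks, so the numbers were not taken as pairs, and whether they mark a batch in TM4 cannot be told. The block moved hairpins called to 222 for Ang OE against Ctrl and 243 against CC, and left 0 of 451 for the diets and every other member's call as it was.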
